A study of Homo sapiens with 60 samples.

Results

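HCC2935 cells that had lived in osimertinib for 21 days were compared with HCC2935 cells that had met the drug for only 24 h, to ask what the drug-tolerant state adds to acute EGFR inhibition. The comparison rests on 6 of the 60 RNA-seq libraries of the series, chosen by their treatment labels: 3 of drug-tolerant persisters (DTP) and 3 of acutely treated cells (acute). HCC2935 is an EGFR-mutant non-small cell lung cancer (NSCLC) cell line, and osimertinib is a third-generation EGFR tyrosine kinase inhibitor. The series holds 4 such lines (HCC2935, PC9, HCC827 and H1975) in 5 arms with 3 biological replicates each. The DTP cells were kept in 500 nM osimertinib for 21 days and harvested at once. The acute cells were the parental line, held without drug for 21 days and then given 500 nM osimertinib for 24 h. Vehicle controls (DMSO) were held in the same way and given DMSO for 24 h. In the washout arms the DTP cells were moved to drug-free medium, for 24 h (short washout) or, in HCC2935, for 10 days (long washout). Every arm of HCC2935 comes from 1 cell line, and the DTP arm is the population that outlived the drug, so a change within cells and a change in which cells are present cannot be told apart.

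EGFR signals through RAS, RAF, MEK and ERK to immediate-early transcription factors, to feedback phosphatases of the DUSP family and to cyclin D1, which opens the way into S phase. Drug-tolerant persisters are the small, slow-cycling fraction of a tumour cell population that outlasts a targeted drug without a resistance mutation being needed. In EGFR-mutant lung cancer they have been linked to other receptor kinases, to the transcriptional co-activator YAP and its TEAD partners, and to a shift from epithelial to mesenchymal genes.

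Epithelial markers were present in both arms and moved in both directions, while the lung adenocarcinoma markers NAPSA and NKX2-1 were lower in DTP cells. Levels are given in CPM, counts scaled to the depth of each library after TMM normalization over the 15 HCC2935 libraries. EPCAM, an epithelial adhesion protein, stood at 662, 614 and 565 CPM in the acute libraries and at 411, 442 and 380 CPM in the DTP libraries, a fall of 0.57 on the log2 scale (edgeR quasi-likelihood test, adjusted p = 0.00159). E-cadherin (CDH1) averaged 1253 ± 168 CPM (SD, n = 3) in acute cells and 1403 ± 113 CPM (SD, n = 3) in DTP cells, without passing the test (adjusted p = 0.265, and 0.0178 with limma on log2 TPM). Keratin 19 (KRT19) did not pass either (log2 fold change 0.03). The surfactant gene SFTPB was low and uneven between replicates and did not pass (adjusted p = 0.539). It stood at 0.0454, 0.317 and 1.89 CPM in acute and at 3.91, 0.0794 and 0.485 CPM in DTP libraries. The other keratins among these markers, KRT7, KRT8 and KRT18, rose by 0.50, 0.64 and 1.07 on the log2 scale. The call of KRT7 was lost with all 60 libraries in the fit (adjusted p = 0.0602). NAPSA and NKX2-1, markers of lung adenocarcinoma, fell by 4.41 and 1.58 on the log2 scale. Of 9 fibroblast markers, 5 had enough counts to be tested and 2 rose, namely COL1A2 and COL3A1. Of the defining fibroblast genes, PDGFRA was at 0 in the acute and at most 0.242 CPM in the DTP libraries, and THY1 was at 0 in all 6. The part of these cell types in the results was not tested. Summed over the list, fibroblast markers ranged from 82.9 to 103 CPM in the acute and from 91.9 to 173 CPM in the DTP libraries, nearly all of it COL1A1. Of 10 immune markers 2 could be tested and neither passed, with sums of 3.31 to 4.24 CPM in acute and 3.29 to 5.19 CPM in DTP libraries. Of 8 endothelial markers 6 were tested, TEK rose and CDH5 and ESAM fell, and the sum went from between 91.1 and 92 CPM to between 63.5 and 70.1 CPM. In bulk RNA, fewer cells of a kind and less RNA per cell cannot be told apart.

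The 6 libraries held 18.6 to 24.7 M estimated counts, within the range of 17.7 to 49.1 M for the whole series. Mitochondrially encoded transcripts took 7.39 to 9.07% of the counts in the acute libraries, 5.32 to 6.02% in the DTP libraries and 5.56 to 6.20% in the DMSO libraries, and the part of this in the results was not tested. Replicates differed by far more than counting error, the chi-square per gene between 2 replicates reaching 37.2 where counting error alone gives about 1. Across 11440 genes the DTP libraries correlated with the short washout libraries at r = 0.963 to 0.983 and with the long washout libraries at r = 0.941 to 0.983, against 0.876 to 0.907 with acute and 0.839 to 0.875 with DMSO. These r values describe libraries of 1 cell line over the same genes.

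The change from acute to tolerant cells was broad. Of 14339 genes tested, 6077 passed an adjusted p under 0.05, or 42.4% of those tested. Of these, 3148 rose (22.0% of the genes tested) and 2929 fell (20.4%), and 2147 genes changed by at least 2-fold, 1302 upwards and 845 downwards. The list counts for DTP against acute cells below are to be read beside the shares of 22.0% and 20.4%. At least 8-fold changes were seen for 163 genes that rose and 41 that fell. On the deposited log2 TPM scale the split shifted to 4284 higher and 1864 lower, with the median of all genes at 0.17, so the split of small changes depends on the scaling. With plain library sizes 45.6% of the calls were higher, compared with 51.8% in the fit reported here.

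Among the genes with the largest rises were DCLK2 and BMP6. DCLK2, a doublecortin-like kinase of microtubules, stood at 0.272, 0.106 and 0.0943 CPM in acute cells and at 12.4, 24.3 and 19.8 CPM in DTP cells, a 114-fold difference (log2 fold change 6.84, SE 0.419, adjusted p = 2.1e-06). The log2 fold change without acute replicate 1 was 7.49. BMP6, a bone morphogenetic protein, moved from 0.0454, 0.0529 and 0.189 CPM to 8.6, 10.1 and 7.61 CPM (log2 fold change 6.44, and 7.34 without acute replicate 3). No acute library reached any DTP library in either gene, but lack of overlap was a condition for naming the largest rises and falls. The matrix proteases ADAMTS15 (log2 fold change 5.73) and ADAMTS5 rose as well, as did MXRA5, a matrix-remodelling protein (6.06), the insulin-like growth factor binding protein IGFBP5 (5.44), the neural adhesion molecule L1CAM (5.38, and 6.20 without acute replicate 2) and SLITRK4, a neuronal transmembrane protein (5.49, and 4.69 without DTP replicate 1). ADAMTS5 had only 3 reads over the acute libraries and 248 over the DTP libraries, a ratio of 74.9 (95% exact counting interval 25.3 to 366). Such intervals cover counting error only.

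Among the genes with the largest falls were ABCA4 and FMO5. ABCA4, an ABC transporter best known from photoreceptors, stood at 32.1, 46 and 58.3 CPM in acute cells and at 0.817, 2.06 and 1.84 CPM in DTP cells, a fall of 4.84 on the log2 scale (SE 0.327, adjusted p = 3.79e-06). FMO5, a flavin monooxygenase, fell from 79.2, 56.1 and 83.7 CPM to 3.48, 7.07 and 3.2 CPM. The arms did not overlap in either gene, which the choice of genes required. SHE, an SH2-domain adaptor, fell by 4.90, CLIC6, a chloride channel family member, by 3.81, CHST6, a carbohydrate sulfotransferase, by 3.79 and the inositol kinase IP6K3 by 3.72 on the log2 scale. CYP17A1, a steroidogenic enzyme, had 153 reads over the acute and 3 over the DTP libraries, a ratio of 56.3 (18.9 to 276).

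**Figure D1:**
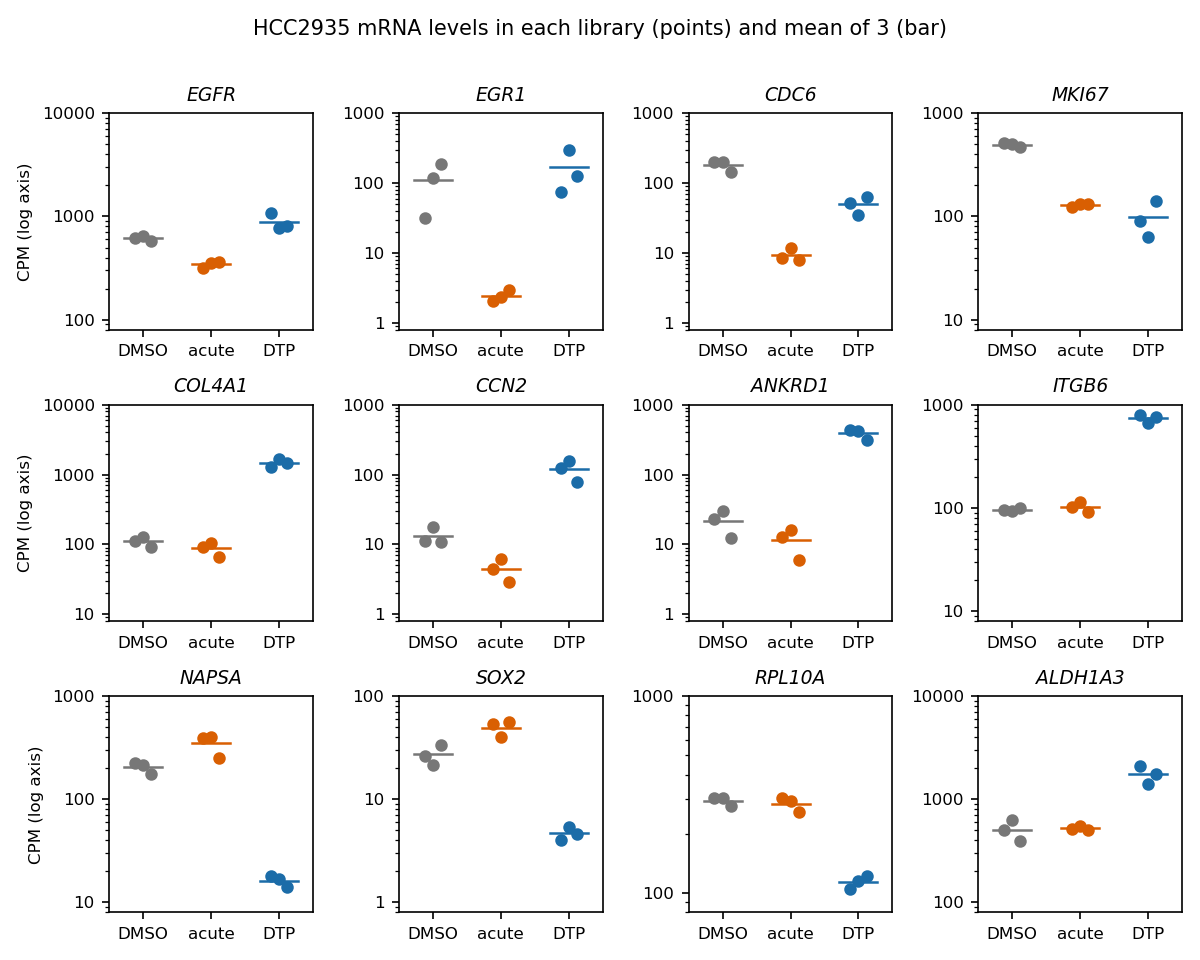
CPM on a log axis for 12 genes in the 9 HCC2935 libraries of the DMSO, acute and DTP arms; each point is 1 library and each bar the mean of 3. MKI67 is the gene whose acute and DTP points overlap, while COL4A1 runs from 66.5 to 106 CPM in acute and from 1291 to 1668 CPM in DTP cells, and NAPSA from 253 to 397 CPM and from 14.2 to 17.9 CPM.

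Promoter sequences are shown for 3 of the genes with large changes, since each carries the motif of a factor that these pathways act through, and for the stretch that a pair of collagen genes shares. They were taken from RefSeq on GRCh38.p14 and are printed 5′ to 3′ on the strand of the gene, as the 250 bases before the annotated start. Capitals mark GGAATG, the core motif of TEAD factors (searched on both strands), in CCN2 (chr6:131951373-131951622, minus strand) and ANKRD1 (chr10:90921088-90921337, minus strand), and CArG boxes, the sites of serum response factor, in EGR1 (chr5:138465229-138465478, plus strand). The 126 bases between the starts of COL4A1 and COL4A2 (chr13:110307158-110307283, read on the minus strand, towards COL4A1) are given in lower case, as no motif was searched in them.
CCN2: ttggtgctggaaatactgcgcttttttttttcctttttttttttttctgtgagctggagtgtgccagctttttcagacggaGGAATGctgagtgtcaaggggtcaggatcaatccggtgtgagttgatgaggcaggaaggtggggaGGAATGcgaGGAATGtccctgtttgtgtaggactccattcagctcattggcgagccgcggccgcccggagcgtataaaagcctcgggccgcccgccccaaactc
ANKRD1: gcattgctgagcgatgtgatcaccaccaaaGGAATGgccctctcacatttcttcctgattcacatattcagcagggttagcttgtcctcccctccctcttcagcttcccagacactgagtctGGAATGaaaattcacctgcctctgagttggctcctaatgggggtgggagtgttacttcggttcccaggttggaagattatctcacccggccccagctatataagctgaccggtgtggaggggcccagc
EGR1: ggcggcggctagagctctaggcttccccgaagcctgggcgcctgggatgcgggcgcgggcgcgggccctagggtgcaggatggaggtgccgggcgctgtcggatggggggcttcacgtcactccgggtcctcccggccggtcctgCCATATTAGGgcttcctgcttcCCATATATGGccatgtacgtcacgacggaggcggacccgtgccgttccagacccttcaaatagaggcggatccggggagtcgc
COL4A1-COL4A2: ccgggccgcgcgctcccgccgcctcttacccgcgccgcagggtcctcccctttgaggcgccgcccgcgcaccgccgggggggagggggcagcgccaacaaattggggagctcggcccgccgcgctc

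CCN2 held 3 matches to GGAATG, beginning 169, 104 and 95 bases before the start, and ANKRD1 held 2. In windows of 300 bases that run 50 bases past the start, GGAATG was present in 14% of 35116 promoters, in 15.2% of the windows of tested genes and in 9 of the 15 YAP and TEAD targets that were tested and had a window. A CArG box was present in 1.29% of all windows, in 1.71% of those of tested genes, and in 1 of 10 ERK-dependent transcription factors, EGR1. A match describes letters in a window and says nothing on whether a factor sits there in these cells.

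Most tested transcription factors that depend on ERK were higher in DTP than in acute cells. EGR1, an immediate-early zinc finger factor, stood at 2.09, 2.33 and 2.92 CPM in acute cells and at 74.5, 303 and 126 CPM in DTP cells, a 69.2-fold rise (log2 fold change 6.11, SE 0.532, adjusted p = 1.75e-05). All DTP libraries lay far above all acute libraries, and the DMSO libraries spread over 32.2 to 185 CPM. FOS, the AP-1 subunit, stood at 2, 9.83 and 8.82 CPM and then at 45.5, 163 and 81.4 CPM (log2 fold change 3.84), and its relative FOSB rose by 4.27. DTP replicate 2 was highest and DTP replicate 1 lowest in all 3 genes, and without DTP replicate 2 the log2 fold changes were 5.35 for EGR1, 3.22 for FOS and 3.39 for FOSB. Of 14 tested ERK-dependent and AP-1 transcription factors, 10 rose and none fell, beside 22.0% and 20.4% of all genes tested. Their median log2 fold change was 1.56, against -0.004 over all genes tested. ETV1, an ERK-dependent ETS factor, was at 0.272, 0.0529 and 0.802 CPM in acute and at 1.08, 2.26 and 0.582 CPM in DTP cells and did not pass (adjusted p = 0.086), except without acute replicate 3 (2.94, adjusted p = 0.0291) and with all 15 HCC2935 or all 60 libraries in the fit (adjusted p = 0.0363 and 0.0194).

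Of 10 tested feedback genes of the pathway, 5 rose and none fell (median 0.95), beside 22.0% and 20.4% of all genes tested. The other 5 did not pass. DUSP6, the ERK phosphatase that is itself induced by ERK, was at 4.72, 2.38 and 3.54 CPM in acute and at 15.5, 12.3 and 8.97 CPM in DTP cells (log2 fold change 1.79, SE 0.29, adjusted p = 0.000786). DMSO cells held 160 ± 5.19 CPM (SD, n = 3), so the DTP libraries were all above the acute and all far under the control libraries. DUSP4 rose by 1.16 and PHLDA1 by 1.46 on the log2 scale. Against DMSO, all 10 fell in acute cells (of 14060 genes tested there, 47.1% passed and 25.1% fell) and 9 of 10 fell in DTP cells (of 14212, 52.5% passed and 27.2% fell). Those 2 comparisons share libraries with each other and with the main one, so only their own values are set side by side here.

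EGFR itself was higher after 21 days of drug than after 24 h. Its levels were 314, 354 and 365 CPM in acute and 1076, 780 and 810 CPM in DTP cells, a 2.6-fold rise (log2 fold change 1.38, SE 0.133, adjusted p = 3.41e-05), with 613 ± 37.6 CPM (SD, n = 3) under DMSO. The arms did not overlap, as for 26.9% of all genes tested with DTP above acute. The DTP libraries also lay above the DMSO libraries (574 to 649 CPM). Its partners ERBB3 and ERBB2 went the other way. ERBB3, which pairs with other family members and feeds PI3K, went from 270, 252 and 276 CPM to 86.9, 98.5 and 72.3 CPM (log2 fold change -1.62), and ERBB2 fell by 0.45. LRIG1, a transmembrane protein that targets EGFR for degradation, stood at 30.9, 33 and 25.9 CPM in acute and at 5.63, 6.51 and 8.92 CPM in DTP cells (log2 fold change -2.09, SE 0.192, adjusted p = 2.55e-05). Some ligands rose in the same cells. HBEGF rose by 2.90 and the ERBB3 and ERBB4 ligand NRG1 by 2.34. Epigen (EPGN) rose by 4.58, from at most 0.272 CPM to between 1.16 and 5.08 CPM, and its log2 fold change was 5.47 without acute replicate 1. Of 13 genes in this family, 9 rose and 3 fell (median 1.06), beside 22.0% and 20.4% of all genes tested.

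Other receptor kinases and their ligands, which can carry survival signals when EGFR is blocked, rose in part. MET, the hepatocyte growth factor receptor, was at 123, 122 and 102 CPM in acute and at 357, 216 and 242 CPM in DTP cells (log2 fold change 1.24, SE 0.172, adjusted p = 0.000301), all under the DMSO mean of 439 CPM. Fibroblast growth factor 2 (FGF2) rose from 0.771, 0.317 and 0.33 CPM to 10.2, 4.92 and 5.33 CPM. IGF1R rose by 1.78 and its ligand IGF2 by 1.69, whereas the collagen receptor DDR1 fell by 0.65 from a level near 952 CPM. In this list 12 of 20 tested genes rose and 2 fell (median 0.95), beside 22.0% and 20.4% of all genes tested. IGF2 shares exons with a read-through gene, so its counts are uncertain.

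Cell-cycle genes split by phase. Most genes of G1/S and DNA replication were higher in DTP than in acute cells, while most genes of G2 and mitosis did not pass. CDC6, which loads the replicative helicase, was at 8.44, 11.8 and 7.97 CPM in acute and at 51.3, 34.5 and 62.8 CPM in DTP cells (log2 fold change 2.41, SE 0.23, adjusted p = 3.17e-05). E2F1 rose by 2.08, MCM10 by 2.02 and the helicase subunit MCM2 by 1.19. Each of these genes was separated between the arms, as were 26.9% of all genes tested with DTP above acute. Each was still lower than in DMSO, where CDC6 averaged 181 CPM. Of 30 genes in the replication list 24 rose and none fell (median 0.99), beside 22.0% and 20.4% of all genes tested. Summed CPM of the list was 630, 596 and 584 in acute, 1115, 838 and 1331 in DTP and 3134 to 3879 in DMSO libraries.

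MKI67, the standard proliferation marker, was at 124, 131 and 131 CPM in acute and at 90.9, 63.5 and 142 CPM in DTP cells, and did not pass (log2 fold change -0.37, SE 0.224, adjusted p = 0.206). The DTP libraries straddled the acute ones, and DTP replicate 3 was the high one. Only KIF23, a motor of the cytokinetic midbody, rose among 25 mitotic genes (log2 fold change 0.94), and CENPA and KIF20A passed as lower, at adjusted p of 0.0425 and 0.0429. Both calls were lost without DTP replicate 1 or 2 or acute replicate 2 or 3. That of KIF20A was also lost without acute replicate 1 (adjusted p = 0.0770 to 0.143 over both genes in these fits). With limma on log2 TPM neither CENPA nor KIF20A passed (adjusted p = 0.113 and 0.0809). The same held with all 60 libraries in the fit (0.0625 and 0.0681), and for KIF20A with all 15 HCC2935 libraries (0.0546). Mitotic sums were 1118, 1239 and 1125 CPM in acute and 916, 724 and 1560 CPM in DTP cells. Without DTP replicate 3, 14 of the 25 genes fell and MKI67 passed at -0.72 (adjusted p = 0.00568), so the mitotic list rests on that library. Against DMSO, all 25 genes fell in both arms, where 25.1% (acute) and 27.2% (DTP) of all genes tested fell.

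Upstream of S phase, cyclin D1 (CCND1) was at 182, 159 and 192 CPM in acute and at 688, 437 and 468 CPM in DTP cells, a 3-fold rise (log2 fold change 1.59, SE 0.165, adjusted p = 5.39e-05) that left it under the DMSO mean of 1509 CPM. Its relative CCND2 rose by 1.63 (adjusted p = 0.0884 with all 60 libraries in the fit). The stress gene GADD45A went from 15.9, 17.5 and 13.5 CPM to 106, 94.6 and 89 CPM (log2 fold change 2.64). The CDK inhibitors CDKN1B (p27) and CDKN1C (p57) fell by 0.60 and 1.37. Altogether 9 of 16 tested G1 cyclins and CDK inhibitors rose and 3 fell, beside 22.0% and 20.4% of all genes tested.

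**Figure D2:**
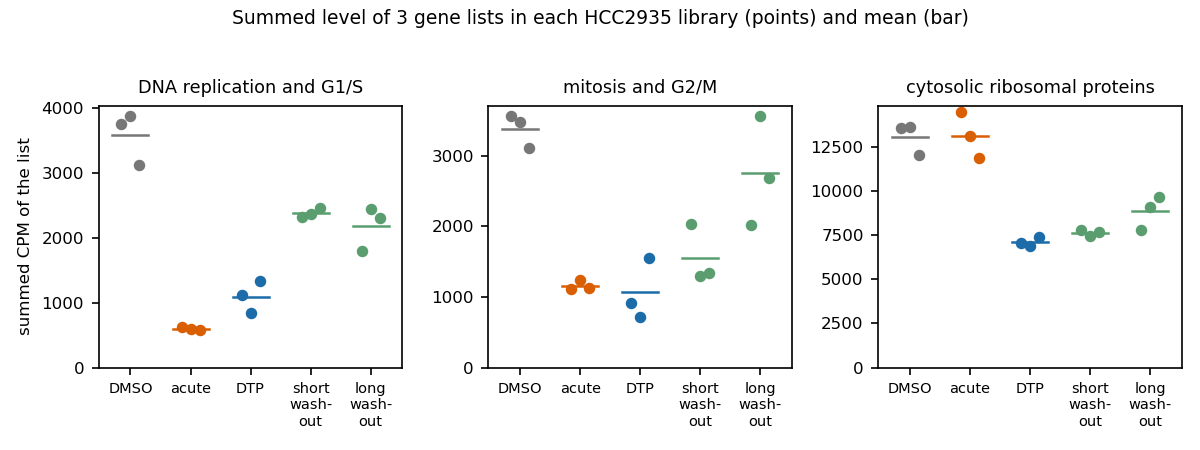
Summed CPM of 3 gene lists in each of the 15 HCC2935 libraries, by arm; points are libraries, bars are means of 3 and each axis starts at 0. Replication genes stand at 584 to 630 in acute and 838 to 1331 in DTP cells, mitotic genes overlap between these arms, and ribosomal protein genes drop from at least 11850 in acute to at most 7405 in DTP cells.

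Most YAP and TEAD targets were higher in tolerant than in acutely treated cells. CCN2 (CTGF), a matricellular protein and classical YAP target, was at 4.49, 6.18 and 2.88 CPM in acute and at 126, 158 and 78 CPM in DTP cells, a 27.1-fold rise (log2 fold change 4.76, SE 0.315, adjusted p = 3.55e-06). ANKRD1, a YAP-induced nuclear ankyrin protein, was at 12.8, 15.9 and 5.99 CPM and then at 435, 417 and 317 CPM, a 34.1-fold rise. Both also lay far above DMSO, where they averaged 13.3 and 21.8 CPM. CCN1 (CYR61) rose by 2.20 and TGFB2, a TGF-beta ligand, by 2.22. Of 20 targets 15 rose and 1, ARHGEF17, fell (median 0.90), beside 22.0% and 20.4% of all genes tested. Compared with DMSO, 9 of 20 were lower and 3 higher in acute cells, whereas 14 were higher and 3 lower in DTP cells. Over all genes tested, 25.1% were lower and 22.0% higher in acute cells, and 25.3% higher and 27.2% lower in DTP cells.

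The TGF-beta family changed in its ligands and in its modulators. INHBA, the subunit of activin A, was at 2.18, 3.44 and 2.45 CPM in acute and at 98.8, 59 and 49.9 CPM in DTP cells (log2 fold change 4.70, SE 0.291, adjusted p = 2.2e-06). INHBB, the subunit of activin B, moved the opposite way, from 220, 228 and 193 CPM to 43.4, 48.1 and 40.2 CPM (log2 fold change -2.27). Neither gene overlapped between the arms, as for 26.9% of all genes tested with DTP above and 27.5% with DTP below. The pseudoreceptor BAMBI rose by 2.44 and the co-receptor TGFBR3 by 2.40, while BMP7 fell by 1.54. TGFB1 stood at 29.7 ± 5.43 CPM (SD, n = 3) in acute and at 27.9 ± 3.73 CPM (SD, n = 3) in DTP cells and did not pass (adjusted p = 0.705). In the list 13 of 23 genes rose and 3 fell (median 0.40), beside 22.0% and 20.4% of all genes tested.

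In the WNT list the stem cell receptor LGR5 rose from 1.13, 0.793 and 0.802 CPM to 16.8, 12.5 and 16.8 CPM (log2 fold change 4.07). SFRP1 and DKK3, secreted modulators of the pathway, rose by 3.09 and 2.55. AXIN2, a feedback target often used as a pathway readout, did not pass (log2 fold change -0.31, adjusted p = 0.227), except without acute replicate 2 (adjusted p = 0.013), and the membrane ubiquitin ligase RNF43 fell by 0.81. Of 27 tested genes 12 rose and 3 fell (median 0.27), beside 22.0% and 20.4% of all genes tested.

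Collagens rose more often than not. All 6 genes of type IV collagen, the network of basement membranes, rose. COL4A1 was at 93.1, 106 and 66.5 CPM in acute and at 1291, 1668 and 1456 CPM in DTP cells, a 16.7-fold rise (log2 fold change 4.06, SE 0.186, adjusted p = 6.29e-07), and COL4A2 rose by 3.01. The 2 genes lie head to head on chromosome 13 with 127 bases from start to start, around the shared stretch printed above. The other 2 pairs are arranged in the same way, COL4A3 and COL4A4 on chromosome 2 (419 bases) and COL4A5 and COL4A6 on the X chromosome (380 bases), and these rose by 3.31, 3.64, 2.77 and 2.87. COL4A6 was at 10.3, 9.25 and 9.19 CPM and then at 69.9, 70.2 and 69.5 CPM. COL4A3 and COL4A4 had already risen in acute cells compared with DMSO, by 3.94 and 2.12 on the log2 scale, while COL4A1 had not passed (log2 fold change -0.36, adjusted p = 0.112). The genes COL4A2, COL4A3, COL4A5 and COL4A6 were named after their values were seen.

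Over the whole collagen list 15 of 20 genes rose and none fell (median 2.33), beside 22.0% and 20.4% of all genes tested. COL3A1 rose from 0.635, 0.581 and 0.33 CPM to 1.55, 11.3 and 10.3 CPM, with DTP replicate 1 far under the others. COL1A1, the bulk collagen of fibroblasts, did not pass (log2 fold change 0.45, adjusted p = 0.0907), though it did without DTP replicate 1 (0.66, adjusted p = 0.00512) and with the replicate block (0.41, adjusted p = 0.0317). Fibronectin (FN1), also named after its values were seen, was at 7338, 7866 and 6316 CPM in acute and at 21404, 26991 and 30415 CPM in DTP cells (log2 fold change 1.88, SE 0.146, adjusted p = 9.4e-06). Per length, FN1 averaged 1466 TPM in acute and 6111 TPM in DTP cells, and COL4A1 20.6 and 392 TPM.

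**Figure D3:**
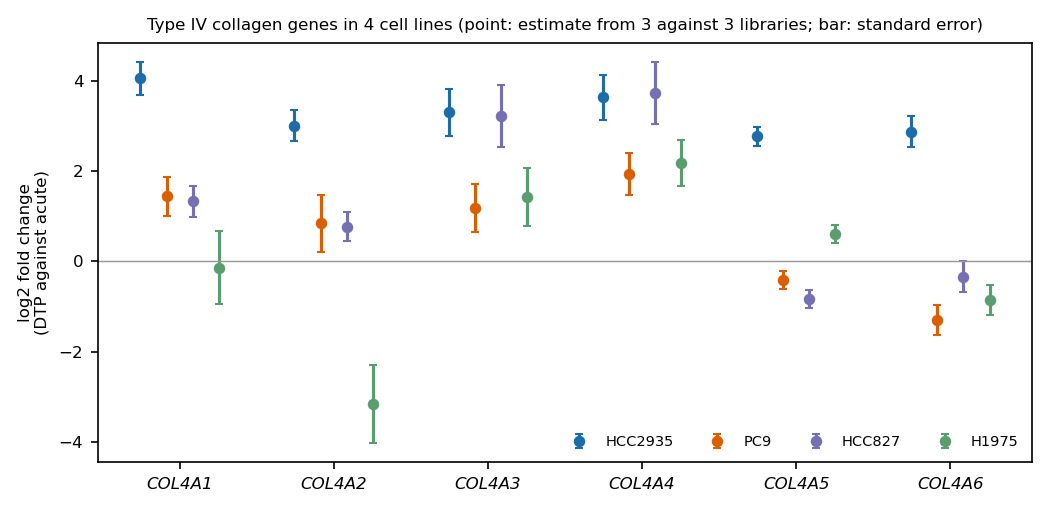
Log2 fold change of DTP against acute cells for the 6 type IV collagen genes in 4 cell lines, from the fit of 24 libraries; points are estimates from 3 against 3 libraries and bars are standard errors. HCC2935 lies between 2.78 and 4.07 in all 6 genes, while COL4A5 and COL4A6 reach at most 0.61 in the other lines.

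Most tested mesenchymal genes rose. LOX, which cross-links collagen, was at 0.59, 0.846 and 0.754 CPM in acute and at 31.1, 22.9 and 25.1 CPM in DTP cells (log2 fold change 5.18, SE 0.227, adjusted p = 5.62e-07). The gelatinase MMP2 rose by 3.89, the actin-binding caldesmon CALD1 by 3.61 and vimentin (VIM) by 1.88, from 65.2, 78.9 and 26.1 CPM to 218, 216 and 187 CPM. S100A4 was the exception among the called genes and fell by 0.79. Of 17 tested mesenchymal genes 13 rose and 1 fell (median 2.14), beside 22.0% and 20.4% of all genes tested. Against DMSO 1 rose and 3 fell in acute cells (22.0% and 25.1% of all genes tested). In DTP cells 11 rose and 1 fell against DMSO (25.3% and 27.2% of all genes tested).

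Integrins are receptors for this matrix and laminins are part of it. In that list 13 of 20 genes rose and 1 fell (median 0.80), beside 22.0% and 20.4% of all genes tested. The other 6 did not pass. ITGB6, whose product pairs with the alpha V chain and activates latent TGF-beta, was at 101, 114 and 91.6 CPM in acute and at 801, 660 and 758 CPM in DTP cells (log2 fold change 2.87, SE 0.12, adjusted p = 5.62e-07). Its partner ITGAV, named after its values were seen, went from 225, 206 and 228 CPM to 914, 880 and 891 CPM, and the collagen receptor ITGA2 rose by 2.69. ITGB3 rose by 3.69 but stayed at or under 2.15 CPM. ITGA1 did not pass (adjusted p = 0.141), except without DTP replicate 2 (0.75, adjusted p = 0.0367) and with the replicate block (adjusted p = 0.0157).

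Epithelial genes moved in both directions, and more junction genes fell than rose. Among 22 junction genes 6 rose and 9 fell (median -0.17). Over all genes tested 22.0% rose and 20.4% fell. TJP3, a tight junction scaffold, was at 109, 96.1 and 107 CPM in acute and at 25.9, 27.2 and 28 CPM in DTP cells (log2 fold change -1.94), and claudin 3 (CLDN3) and the epithelial factor OVOL2 fell by 1.15 and 1.42. The desmosomal PKP2, claudin 1 (CLDN1) and the epithelial factor GRHL2 rose by 2.07, 1.40 and 2.56, and GRHL2 by 3.37 without acute replicate 1. Most keratins rose, 9 of 14 tested (median 0.81), among them KRT5 by 3.04, KRT13 by 2.05, KRT17 by 1.87 and KRT18, which went from 858 to 1790.4 CPM on average. KRT4, a keratin of stratified mucosa, fell from 181, 303 and 89.5 CPM to 15.9, 33.4 and 18.2 CPM. KRT6A fell by 1.04, from levels that acute drug had already brought down from a DMSO mean of 127 CPM, and its call was lost with all 60 libraries in the fit (adjusted p = 0.0540). Exons of KRT18 overlap those of KRT8 on the opposite strand, so part of its counts may be shared.

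Genes of the distal lung lineage moved in both directions. NAPSA, the aspartic protease used to diagnose lung adenocarcinoma, was at 395, 397 and 253 CPM in acute and at 17.9, 16.8 and 14.2 CPM in DTP cells, a 21.2-fold fall (log2 fold change -4.41, SE 0.193, adjusted p = 5.62e-07). NKX2-1, the lung lineage factor that drives it, fell from 281, 273 and 269 CPM to 94.9, 93.6 and 84.9 CPM, and FOXA1 fell by 1.46. Compared with DMSO, NAPSA and NKX2-1 were higher in acute and lower in DTP cells (DMSO means 204 and 148 CPM). CAV1, a gene of type I alveolar cells, rose by 1.78, and the surfactant lipid transporter ABCA3 and FOXA2 rose by 1.09 and 0.88. Of 13 tested alveolar genes 3 rose and 4 fell (median -0.38). Over all genes tested 22.0% rose and 20.4% fell, so the list as a whole was not far from that share.

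Most tested airway and mucin genes fell. The gel-forming mucin MUC5B was at 6.35, 36.8 and 32.1 CPM in acute and at 0.258, 1.87 and 2.18 CPM in DTP cells (log2 fold change -4.12), and MUC5AC at 4.04, 5.39 and 14.1 CPM and then at 0.473, 0.397 and 0 CPM (log2 fold change -4.68, and -3.95 without acute replicate 3). FOXJ1, the factor of ciliated cells, fell by 2.98. None of 13 tested genes rose and 10 fell (median -2.10), beside 22.0% and 20.4% of all genes tested. Against DMSO, 9 of 13 were higher in acute cells (22.0% of all genes tested rose there). In DTP cells 6 of 12 were lower and 2 higher (27.2% and 25.3% of all genes tested). The transmembrane mucin MUC1 did not pass (log2 fold change 0.11, adjusted p = 0.475, and 0.0308 with limma on log2 TPM).

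SOX2, a factor of the proximal airway and of squamous tumours, was at 53.1, 39.7 and 55.5 CPM in acute and at 4.04, 5.36 and 4.65 CPM in DTP cells (log2 fold change -3.39, SE 0.182, adjusted p = 1.24e-06). TP63, the basal cell factor, fell by 0.89 (adjusted p = 0.129 with all 60 libraries in the fit), the desmosomal plakophilin PKP1 by 2.21 and the cornified envelope gene SPRR1B by 1.81, whereas involucrin (IVL) rose by 1.64. Of 13 tested squamous genes 2 rose and 7 fell (median -0.48), beside 22.0% and 20.4% of all genes tested.

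**Figure D4:**
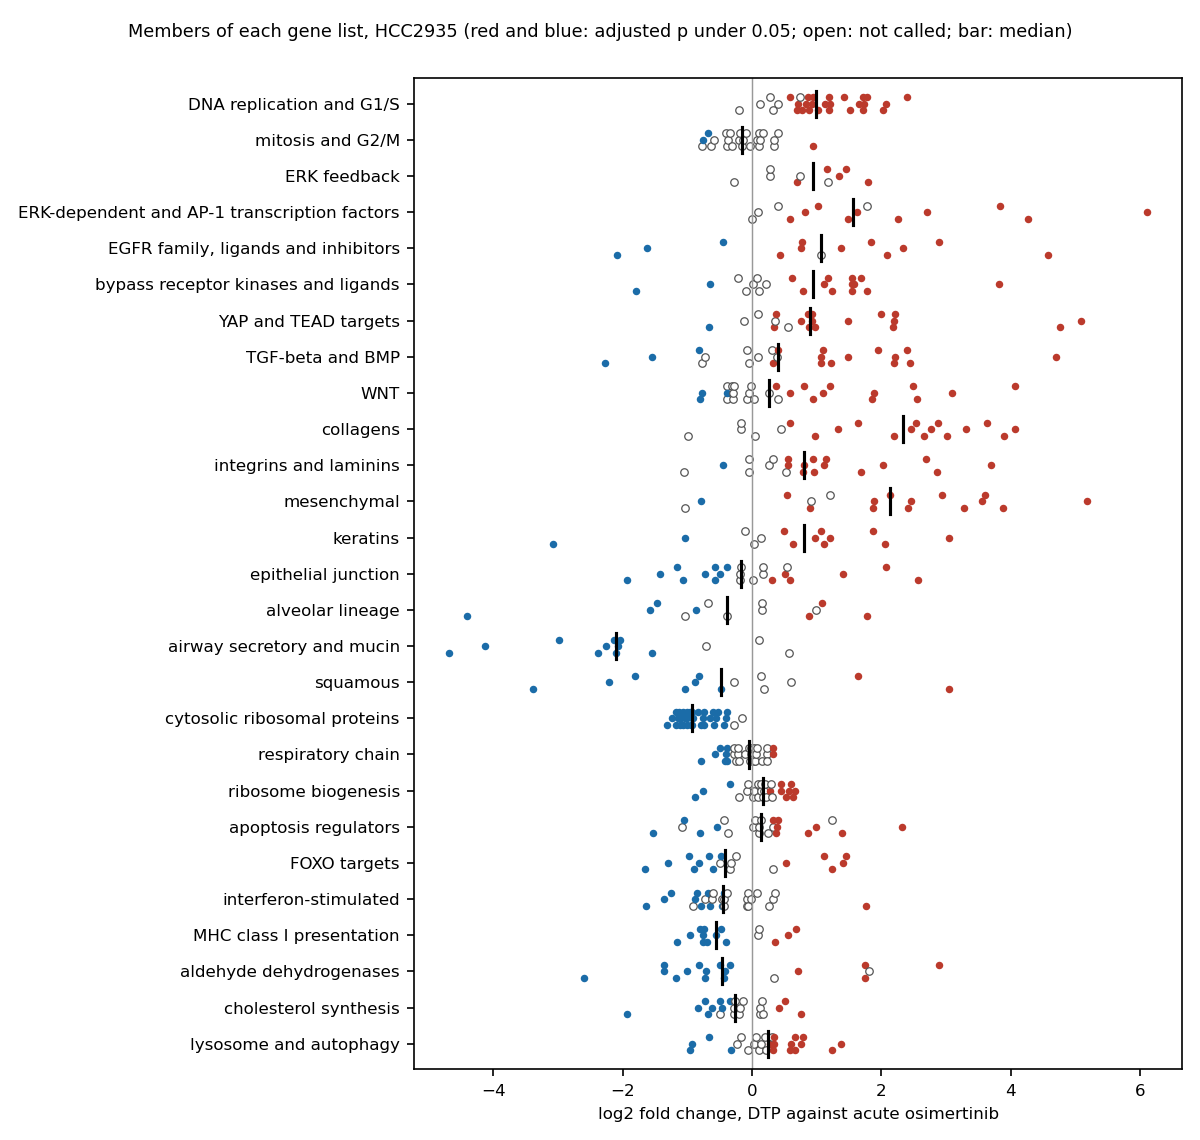
Log2 fold change of DTP against acute cells for every tested member of 27 gene lists in HCC2935; red and blue points passed the test as higher and lower, open points did not, and the bar is the list median. Collagens and mesenchymal genes have medians of 2.33 and 2.14, ribosomal proteins -0.92 and airway and mucin genes -2.10.

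Nearly all ribosomal protein genes were lower in tolerant cells. Of 35 cytosolic ribosomal protein genes none rose and 33 fell (median -0.92), beside 22.0% and 20.4% of all genes tested. RPL10A was at 304, 293 and 257 CPM in acute and at 105, 115 and 122 CPM in DTP cells (log2 fold change -1.31, SE 0.105, adjusted p = 1.11e-05), and RPLP0 at 711, 655 and 611 CPM and then at 353, 318 and 365 CPM. RPS9 fell by 1.17. Acute cells resembled DMSO cells here, with 2 of 35 genes higher and 4 lower (22.0% and 25.1% of all genes tested). In DTP cells 34 of 35 were lower than in DMSO (27.2% of all genes tested). Summed CPM was 14459, 13108 and 11850 in acute and 7079, 6894 and 7405 in DTP libraries. In short and long washout it ranged over 7437 to 7814 and 7778 to 9665 CPM.

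Ribosomal protein transcripts are short, with a median annotated length of 764.5 bases over the list. Short transcripts had lower values as a class, the median log2 fold change being -0.08 for 3183 tested genes of 500 to 1000 bases and 0.13 for 2166 genes of at least 4000 bases. The 30 nuclear genes of the respiratory chain, of similar median length (741 bases), had a median of -0.04, with 2 higher and 7 lower. NDUFA1 among them did not pass (log2 fold change -0.03). The part of transcript length in the fall of the ribosomal protein genes was not tested. Ribosome biogenesis factors, which build the particle, had 8 of 26 higher and 3 lower (median 0.18).

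Regulators of apoptosis moved in both directions, and 3 BH3-only genes that acute drug had raised were lower in DTP cells. BMF, an apoptosis activator of the BCL2 family, was at 785, 675 and 782 CPM in acute and at 345, 387 and 342 CPM in DTP cells (log2 fold change -1.05, SE 0.105, adjusted p = 4.15e-05), with 124 ± 54.1 CPM (SD, n = 3) under DMSO. PUMA (BBC3) fell by 1.54 and BIM (BCL2L11) by 0.54, though BIM did not pass on the log2 TPM scale (adjusted p = 0.0935), and the initiator caspase CASP9 fell by 0.80. Some inhibitor-of-apoptosis genes rose. BIRC2 rose by 0.99 and BIRC7 by 2.32 from a low level. BIRC3 was at 297 CPM in DTP replicate 1 but at 87.1 and 112 CPM in the others, and its log2 fold change of 1.40 became 0.68 without that library (adjusted p = 0.0173), and the call was lost without acute replicate 1 or 2 (adjusted p = 0.0527 and 0.0528). Of 23 tested regulators 8 rose and 4 fell (median 0.14), beside 22.0% and 20.4% of all genes tested.

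FOXO factors enter the nucleus when AKT is inhibited, which was not tested here. Of 18 FOXO targets 10 were higher than DMSO in each of the acute and DTP arms. Over all genes tested 22.0% were higher in acute and 25.3% in DTP cells. Between the arms 5 of the 18 targets rose and 8 fell (median -0.41), beside 22.0% and 20.4% of all genes tested. TXNIP, which restrains glucose uptake, fell from 868, 823 and 594 CPM to 194, 317 and 214 CPM, and BCL6 and the PI3K inhibitor PIK3IP1 fell by 1.29 and 0.97. IRS2, KLF6 and FOXO1 rose by 1.46, 1.40 and 1.24, FOXO1 with an adjusted p of 0.0591 when all 15 HCC2935 libraries were fitted.

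Of 28 interferon-stimulated genes 1 rose and 10 fell (median -0.44), beside 22.0% and 20.4% of all genes tested. The other 17 did not pass. With all 60 libraries in the fit 5 fell. MX2, an antiviral GTPase, was at 41, 38.5 and 41.5 CPM in acute and at 13.2, 14.6 and 10.6 CPM in DTP cells, OASL and GBP2 fell by 1.36 and 1.26, and GBP1 alone rose, by 1.76. IFIT1 did not pass (adjusted p = 0.0582), although it did without DTP replicate 2 (adjusted p = 0.0106) and with DESeq2 (adjusted p = 0.0442). In MHC class I presentation 3 of 15 genes rose and 10 fell (median -0.56), beside 22.0% and 20.4% of all genes tested. The immunoproteasome subunits PSMB10, PSMB8 and PSMB9 fell by 1.16, 0.95 and 0.80. The peptide-trimming peptidases ERAP1 and ERAP2 rose, by 0.68 and 0.56. Complement C3 fell by 1.49, and the monocyte chemokine CCL2 rose from 1.45, 1.22 and 1.32 CPM to 50.9, 9.77 and 10.6 CPM (log2 fold change 4.16, and 2.94 without DTP replicate 1).

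In metabolism, aldehyde dehydrogenases, often used as markers of tolerant and stem-like cells, split. ALDH1A3, which makes retinoic acid, was at 511, 555 and 505 CPM in acute and at 2081, 1413 and 1763 CPM in DTP cells (log2 fold change 1.75, SE 0.136, adjusted p = 9.38e-06), and ALDH1A1 rose by 2.90. ALDH3A1 fell by 2.60, and in the list 4 of 18 genes rose and 12 fell (median -0.46). The hypoxia-responsive genes EGLN3 and ADM rose by 3.18 and 3.10, whereas NDRG1 fell by 1.24, and 5 of 23 glycolysis and hypoxia genes rose and 7 fell. The lipogenic factor SREBF1 fell by 1.61. Of 22 cholesterol genes 3 rose and 8 fell, and of 15 fatty acid genes 3 rose and 3 fell. Lysosome and autophagy genes gave 12 higher and 4 lower of 26, including the autophagosome protein GABARAPL1 (log2 fold change 1.39). The drug efflux pump ABCB1 rose by 4.71 to at most 3.45 CPM, and by 6.32 without acute replicate 2, while 5 of 21 ABC transporters rose and 4 fell. Over all genes tested 22.0% rose and 20.4% fell, and the fatty acid and ABC transporter lists lay near these shares.

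The remaining lists are given by their counts, to be read beside 22.0% of all genes tested that rose and 20.4% that fell. In the Notch list the ligand JAG1 rose by 1.48, and the receptor NOTCH3 and the ligand DLL4 fell by 1.64 and 2.56, with 4 of 15 genes higher and 5 lower. MHC class II had 1 of 11 higher and 3 lower, chemokines and interleukins 6 of 19 and 1, and complement and acute phase genes 7 of 18 and 5. ATF4 targets and tRNA synthetases had 7 of 21 higher and 3 lower, and NRF2 targets 7 of 19 and 6. Neuroendocrine genes had 2 of 8 higher and 2 lower, and histone and DNA modifying enzymes 3 of 28 and 8.

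The change from acute to DTP was also measured in PC9, HCC827 and H1975, which makes it possible to ask where HCC2935 differed. In a fit of 24 libraries the difference between HCC2935 and the mean of the other lines passed for 4566 of 16168 genes (28.2%), 2423 with a larger and 2143 with a smaller log2 fold change in HCC2935 (15% and 13.3%). Within this fit 40.8% of genes passed in HCC2935, 21.2% as higher and 19.6% as lower. EGFR rose by 1.38 in HCC2935 and by 0.45 in PC9 and fell by 0.50 in HCC827 and by 0.59 in H1975, a difference of 1.60 (SE 0.127, adjusted p = 1.94e-08). LRIG1 went the opposite way, with a log2 fold change of -2.08 in HCC2935 against 0.81, 1.18 and 2.05 in PC9, HCC827 and H1975 (difference -3.43, adjusted p = 9.1e-09). For both genes HCC2935 stood outside the range of the other lines.

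Matrix and adhesion genes differed between the lines as well. ITGB6 rose by 2.87 in HCC2935 and had log2 fold changes of 0.04, -1.74 and -4.90 in PC9, HCC827 and H1975 (difference 5.07, adjusted p = 2.9e-07), and CALD1 differed by 3.08. COL4A1, COL4A2, COL4A5 and COL4A6 differed by 3.19, 3.54, 2.99 and 3.71, whereas COL4A3 and COL4A4 did not pass (differences 1.36 and 1.02, adjusted p = 0.108 and 0.195), COL4A3 except with the replicate block or against PC9 alone (adjusted p = 0.0357 and 0.0373). Over the lists, 15 of 20 integrin and laminin genes, 15 of 20 YAP and TEAD targets and 8 of 20 collagens had a larger log2 fold change in HCC2935. A smaller one was seen for 1 YAP and TEAD target. Over all genes tested 15% had a larger and 13.3% a smaller one. ANKRD1 rose by 5.09 in HCC2935 and by 4.57 in PC9, and its difference from PC9 alone did not pass (0.53, adjusted p = 0.613).

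Epithelial junction genes had list medians of -0.17 in HCC2935, -0.27 in PC9, -1.33 in HCC827 and -2.01 in H1975. CDH1 had a log2 fold change of 0.18 in HCC2935, -0.12 in PC9, -2.15 in HCC827 and -5.29 in H1975 (difference 2.70, SE 0.381, adjusted p = 2.3e-05), and against PC9 alone it did not pass (adjusted p = 0.686). In the junction list 14 of 22 genes had a larger log2 fold change in HCC2935 and none a smaller one (15% and 13.3% of all genes tested). NKX2-1 fell by 1.57 in HCC2935 and by 0.61 in H1975, rose by 1.32 in PC9 and did not pass in HCC827 (-0.37). Its difference from the mean of the other lines was -1.69. NAPSA fell by 4.40 in HCC2935, by 2.98 in HCC827 and by 1.03 in H1975 and did not pass in PC9 (0.48), a difference of -3.23. ALDH1A3 rose by 1.76 in HCC2935 and fell by 0.71 in PC9 and by 1.28 in HCC827, a difference of 2.59.

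For ribosomal protein genes, 32 of 35 had a smaller log2 fold change in HCC2935 than the mean of the other lines (13.3% of all genes tested). The list medians in the other lines were -0.53 in PC9, -0.13 in HCC827 and 0.31 in H1975. RPL10A differed by -1.15 (SE 0.13, adjusted p = 2e-06). Interferon-stimulated genes had list medians of -0.44 in HCC2935, 1.39 in PC9, 0.04 in HCC827 and -1.44 in H1975, so HCC2935 stood between other lines. The replication list had 8 of 30 genes with a larger and 1 with a smaller change (15% and 13.3% of all genes tested). MCM2 did not pass (difference 0.54, adjusted p = 0.0746, and 0.0232 without DTP replicate 2). TJP3 and LGR5 did not pass either (adjusted p = 0.857 and 0.496), each having moved in the same direction in all 4 lines.

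**Figure D5:**
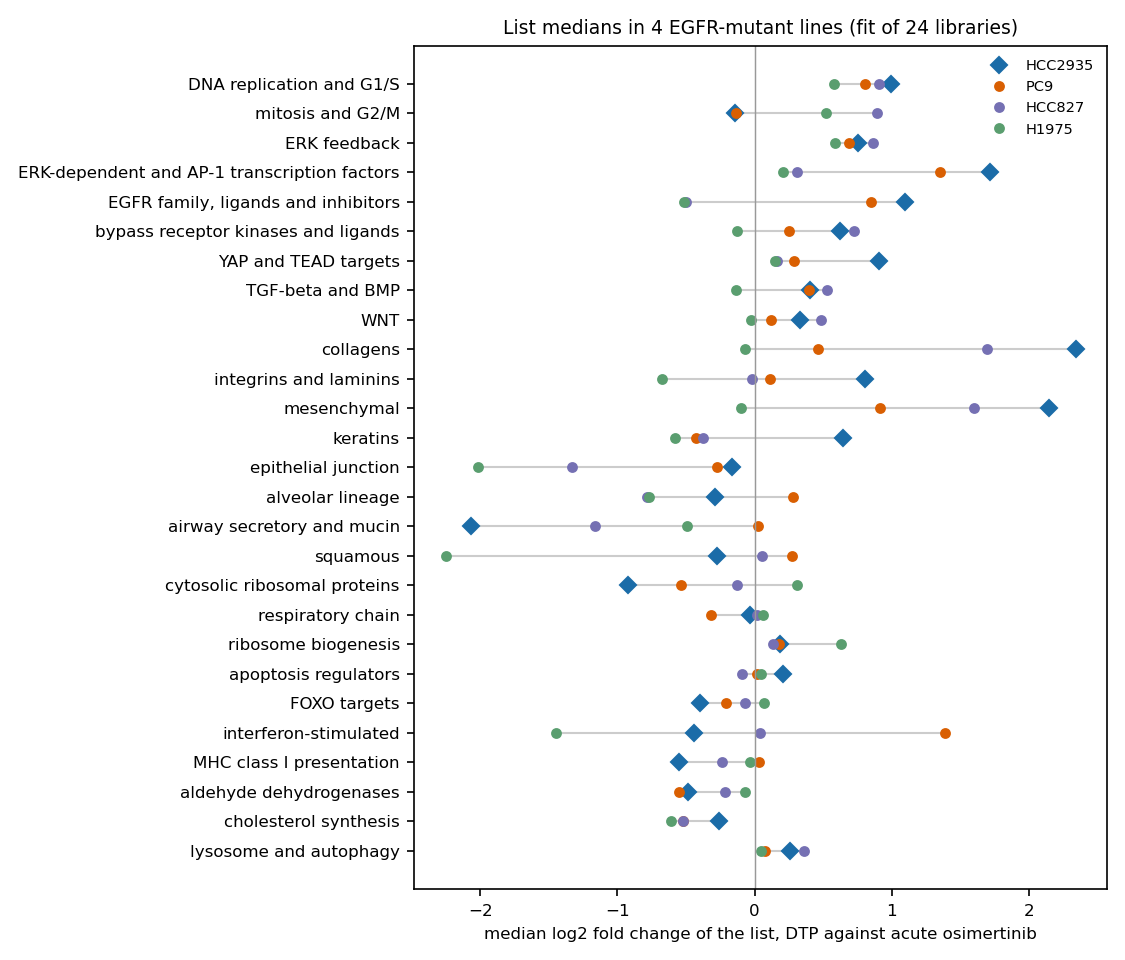
Median log2 fold change of DTP against acute cells for 27 gene lists in HCC2935 (diamonds), PC9, HCC827 and H1975, from the fit of 24 libraries. HCC2935 lies to the right of all other lines for collagens (2.34), mesenchymal genes (2.15), YAP and TEAD targets (0.91) and keratins (0.65), and to the left of them for airway and mucin genes (-2.06) and ribosomal proteins (-0.92).

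The washout libraries show where these genes stood once the drug was gone, given as levels with no test. COL4A1 was still at 1645 to 1735 CPM after 24 h and at 916 to 1789 CPM after 10 days without drug, in each library above every acute and DMSO library. NAPSA stayed at 12.9 to 15.2 CPM and then at 6.59 to 18.6 CPM, and SOX2 at no more than 2.86 and 3.39 CPM. DUSP6 reached 11.9 to 17.1 CPM and 14.2 to 28.2 CPM, far under DMSO in both. CDC6 was at 137 to 144 CPM after 24 h, above every DTP library, and summed replication genes at 2329 to 2455 CPM. EGR1 varied most, over 5.76 to 211 CPM in short and 43.6 to 257 CPM in long washout.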

How the data were processed

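Poly-A RNA-seq (Illumina TruSeq, paired-end) was made from 4 cell lines in 5 arms with 3 replicates, grouped by their titles. Estimated counts for 19712 gene symbols were deposited, not normalized between libraries, and log2 TPM values with a pseudocount of 0.01. Per the labels (submitters' processing notes), HISAT2 2.1.0, Salmon 0.8.2 and hg38 were used; the annotation and the use of strand are not given in the sources used here. Of 164 genes followed here, 57 have an exon that overlaps a gene on the opposite strand and 25 one on the same strand, so their counts may be shared.

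Estimated counts were rounded and fitted in R 4.3.3 with edgeR 4.0.16 (TMM, filterByExpr, quasi-likelihood F-test), DTP against acute on 6 libraries, with Benjamini-Hochberg adjustment over all genes tested and calls at 0.05. SE is the log2 fold change divided by the root of F. The difference between lines used 24 libraries in 8 groups, and acute and DTP were each compared with DMSO. The 6 libraries held 18.6 to 24.7 M counts. P-values measure the spread between the 3 replicates of each arm. Scripts were tested on simulated data with 200 changed genes. In the main comparison 12 of 158 calls were false (7.59%). It recovered 38% of 1.5-fold, 64% of 2-fold, 90% of 4-fold and 100% of 8-fold changes. The simulated data held 14189 genes, of which 200 changed, whereas 42.4% of genes passed in the real comparison. These rates therefore need not hold for the real data. DESeq2 1.42.0, limma 3.58.1 on log2 TPM, other scalings, filters, sample sets, a replicate block and each of the 6 HCC2935 libraries left out were tried. The plots were made with Python 3.11.15 and matplotlib 3.10.9.

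The text names the 10 largest rises and the 10 largest falls among called genes that averaged 1 CPM or more and whose arms did not overlap, up to 3 called members per list and direction, the first member of each list, and the 5 highest and 5 lowest differences between lines, with some left out. Some genes of these groups are not reported here. Members and lists were chosen with earlier results of these data known. The lists hold textbook members. KRT86, VEGFA and GARS could not be matched to the table. Transcript lengths were joined from GENCODE 29 for 97.8% of the genes tested, and promoters from RefSeq.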

Additional observations from a re-analysis of the deposited data

Results flagged for a closer look

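Of 29 genes whose difference between HCC2935 and the mean of the other lines is reported, 24 passed that test, all as differences of the DTP against acute log2 fold change (edgeR quasi-likelihood test, 24 libraries). Higher in HCC2935 were SLITRK4 (6.68), ART4 (5.88), PTGS1 (5.72), ERP27 (5.62), EGR1 (5.60), ITGB6 (5.07), COL4A6 (3.71), COL4A2 (3.54), COL4A1 (3.19), CALD1 (3.08), COL4A5 (2.99), CDH1 (2.70), ALDH1A3 (2.59), ANKRD1 (2.42) and EGFR (1.60). Lower were AL132780.3 (-8.74), ST6GALNAC3 (-5.26), ABCA4 (-5.12), CAPNS2 (-5.12), F13A1 (-5.01), LRIG1 (-3.43), NAPSA (-3.23), NKX2-1 (-1.69) and RPL10A (-1.15).

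Some of these rest on few libraries or on 1 line. AL132780.3 was at 5.87 CPM in acute replicate 2, at 0.227 and 0 CPM in the other acute libraries and at 0 in all DTP libraries, and its difference without acute replicate 2 was -4.68 (adjusted p = 0.349). That call was also lost without DTP replicate 1, 2 or 3 (adjusted p = 0.0641, 0.0660 and 0.0620) and against HCC827 alone (adjusted p = 0.0655). The EGR1 difference did not pass against PC9 alone (3.05, adjusted p = 0.308), without DTP replicate 2 (4.83, adjusted p = 0.0642) or without any 1 of the acute libraries (adjusted p = 0.0653 to 0.0699). F13A1 passed narrowly (adjusted p = 0.0499) and lost its call without any 1 of the 6 HCC2935 libraries (adjusted p = 0.0501 to 0.0704) and against PC9 (adjusted p = 0.447) or HCC827 alone (adjusted p = 0.0759). Against PC9 alone, CDH1, ANKRD1, SLITRK4 and ST6GALNAC3 did not pass (adjusted p = 0.686, 0.613, 0.0843 and 0.0623), and CAPNS2 did not pass against HCC827 alone (adjusted p = 0.0983). COX-1 (PTGS1) was at 1.5, 0.476 and 0.0472 CPM in acute and at 4.3, 3.06 and 1.65 CPM in DTP cells, and its own rise of 2.15 was lost without any of DTP replicates 1 and 2 and acute replicates 2 and 3 (adjusted p = 0.0633 to 0.121).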

How the results depend on the processing

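The 6077 calls became 6063 with size factors of the RLE kind, 6192 with library sizes only, 6322 with DESeq2, 6036 without a filter, 5819 with at least 10 counts in every library, 6148 with limma on log2 TPM, 6687 and 6730 with all 15 HCC2935 or all 60 libraries in the fit, 6030 after thinning each library to the smallest total, and 4933 to 5466 with 1 library left out (2589 to 2855 higher, 2344 to 2611 lower). At an adjusted p under 0.01 there were 3933 calls, 1797 of them lower, and limma on log2 TPM gave 1864 lower. A replicate block gave 5734 calls. Same-numbered DTP and acute libraries deviated together at r = 0.0657, 0.0470 and -0.0543 over 11521 genes, and different-numbered ones at -0.112 to 0.0582. These values show no pairing by number, but with 3 replicates per arm they cannot exclude it. With the block, 7484 genes passed between acute and DMSO (6623 without) and 6731 between DTP and DMSO (7455 without). DESeq2 gave 6837 and 7619. The 4566 differences between lines became 5112 with DESeq2, 4590 with RLE factors, 4146 and 4381 with at least 10 counts or no filter, 4245 with a block, and 3888, 4361 and 4756 against PC9, HCC827 or H1975 alone. They became 3785 to 4000 with 1 of the HCC2935 libraries left out, and libraries of the other lines were not left out in turn. No log2 fold change or difference of a named gene that passed changed sign. Among those that did not pass, signs changed for KRT19 (-0.04 to 0.20), TGFB1 (-0.18 to 0.10) and NDUFA1 (-0.12 to 0.14), and for the differences of COL4A4 (-0.10 to 1.70), LGR5 (-2.42 to 1.40) and TJP3 (-0.60 to 0.77). The mitotic median ran from -0.51 to 0.05, and with library sizes only more genes were lower (3370) than higher (2822). Genes at few reads are limited by depth.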
